A study of Mus musculus with 30 samples.

Results

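The interleukin-6 family and its signalling chain, 10 genes with 24 probe sets, were followed across 30 arrays of mouse heart, kidney, brain and vessel. They were 10 of the 18193 genes that the arrays measured with probe sets of a single gene symbol (24 of 34945 such probe sets). The genes were chosen by symbol: the ligands Il6, Lif, Osm, Il11 and Clcf1, the receptor chains Il6ra, Il6st and Osmr, the transcription factor Stat3 and the feedback inhibitor Socs3. The mice were male C57BL/6, 8 to 10 weeks old, and were given the pressor peptide angiotensin II at 1500 ng per kg per minute from an implanted osmotic pump. Total RNA was taken after 1, 3 or 7 days, and day 0 groups were untreated. There were 3 heart arrays per day (days 0, 1, 3 and 7), 2 kidney arrays per day (the same days), 2 brain arrays per day (days 0, 3 and 7) and 1 vessel array on each of 4 days. The labels call the arrays biological replicates but leave unsaid which organs share a mouse, whether RNA was pooled, or whether day 0 mice carried a pump, so p-values measure only the spread between these arrays.

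Cytokines of the interleukin-6 family signal through the shared receptor chain gp130, the product of Il6st. The ligands differ in the further chains they use, such as Il6ra for interleukin-6, Osmr for oncostatin M and Lifr for leukemia inhibitory factor. Janus kinases bound to gp130 then phosphorylate Stat3, which enters the nucleus and induces its target genes. Socs3 is among these targets, and its protein binds gp130 and shuts the signal down again. In heart, gp130 signalling is known for its part in hypertrophy and in the acute phase response of muscle to stress.

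Each array carried 45101 probe sets on the Affymetrix Mouse Genome 430 2.0 platform, and array medians lay between 35.2 and 37.8 intensity units. The 40th percentile, used as the level below which a signal was treated as low, lay between 22.8 and 26.6. Tissue markers matched the labels. The summed intensity of 8 cardiomyocyte genes was 95752 to 109719 in heart and at most 16239 elsewhere, that of 7 kidney tubule and podocyte genes 17607 to 24645 in kidney and at most 641 elsewhere, and that of 7 neuron and glia genes 46171 to 51631 in brain and at most 1990 elsewhere. Vessel held the highest smooth muscle sum (26520 to 34646), but also a fat marker sum of 32606 to 55491 and a cardiomyocyte sum that varied from 1871 to 16239. The number of arrays, 1 to 3 a group, limits the precision of every difference. In tissue RNA, more cells of a type and more RNA per cell cannot be told apart.

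A rise of Il6, Socs3, Osmr, Stat3 and Il11 after 1 day was the main response of the family in heart. Differences below are of log2(intensity + 16) with standard errors, tested by limma over 4 heart groups with Benjamini-Hochberg adjustment over 14040 genes. This scale understates changes of weak signals. The 5 rises stood among 10 members tested, where 13.4% of all tested genes changed in either direction and 4.86% rose. Il6 is one of the 5, but it passed the filter on low values only through arrays where it was high. Its call therefore cannot be set against these shares. No member fell. Their median difference was 0.40, against -0.02 over all genes tested.

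**Figure D1:**
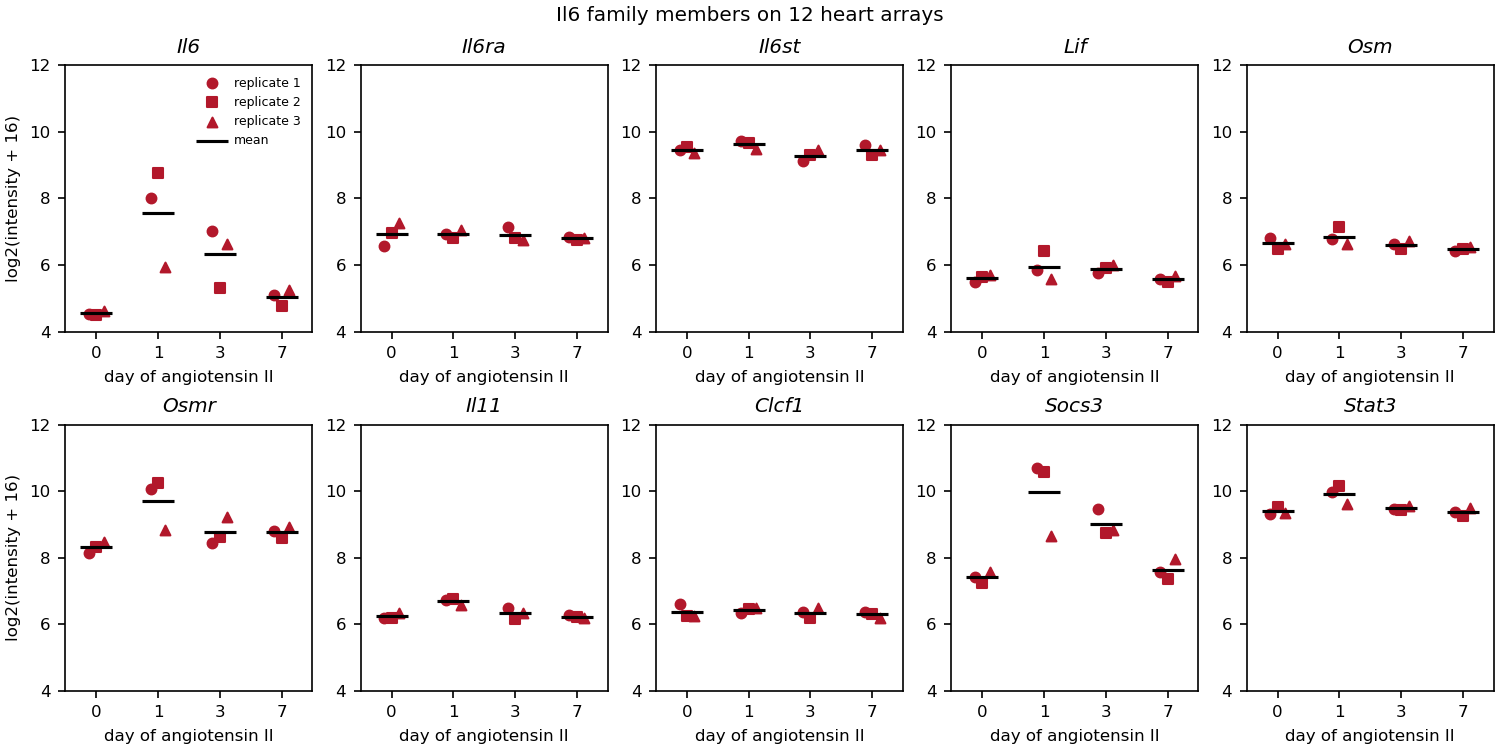
Level of each family member on the 12 heart arrays, as log2(intensity + 16) of its representative probe set, by day of angiotensin II. Symbols are single arrays by replicate number and black bars are group means (n = 3). Il6, Osmr and Socs3 stand highest at day 1, where replicate 3 lies below replicates 1 and 2.

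Among the ligands, Il6, the inflammatory cytokine that gives the family its name, had an intensity of 7.15, 6.77 and 8.77 on the 3 untreated heart arrays, below the 40th percentile on each. At day 1 it was 241, 419 and 45.5, at day 3 it was 114, 23.7 and 83.1, and at day 7 it was 18.4, 11.3 and 21.7. All day 1 arrays lay above all untreated arrays, and replicate 3 was the lowest of them. Set against the 40th percentile of the untreated arrays in place of their own values, the geometric mean of 166 at day 1 was at least 6.48-fold higher. The fitted difference was 3.01 ± 0.56 (adjusted p = 0.0068 by limma), but its size has no firm base in the untreated signal and ran from 1.82 to 4.30 over 10 other settings. Il6 passed the filter on low values only through 3 day 1 and 2 day 3 arrays, so among tested genes it had to differ between days. Without it, 4 of the 9 other members were called. Il11, a ligand known for its profibrotic action in heart, was far steadier. Its intensity was 56.7, 57.0 and 65.3 untreated and 90.2, 92.9 and 79.6 at day 1, with no overlap, and it rose by 0.45 ± 0.10 (adjusted p = 0.014). Its day 3 values of 74.0, 55.2 and 65.1 and day 7 values of 61.8, 58.4 and 57.2 lay near the untreated range.

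The other 3 ligands were not called on their representative probe sets. Lif, which signals through gp130 and Lifr, was 28.6, 33.5 and 35.6 untreated and 42.0, 69.2 and 31.4 at day 1. The groups overlapped because of replicate 3, and the difference was 0.35 ± 0.17 (adjusted p = 0.20). Without that array the difference was 0.53 and the adjusted p 0.019. Osm, made mainly by white cells, was 95.9, 74.1 and 83.4 untreated and 93.5, 124 and 83.1 at day 1, a difference of 0.20 ± 0.13 (adjusted p = 0.35). Clcf1, which signals through the receptor of ciliary neurotrophic factor, gave different answers by probe set. Its representative, 1450262_at, differed by 0.06 ± 0.12 (adjusted p = 0.81). Probe set 1437271_at went from 20.5, 27.3 and 25.0 to 41.1, 58.1 and 28.1, a difference of 0.51 ± 0.15 with an adjusted p of 0.049 in limma over probe sets. Its remaining probe set stayed at or below 12.9 in heart.

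Of the receptor chains, Osmr rose and the shared chain and Il6ra were not called. Osmr, the chain that makes a cell responsive to oncostatin M, was 264, 305 and 336 untreated and 1050, 1191 and 441 at day 1. No day 1 array overlapped the untreated ones, and the difference was 1.41 ± 0.30 (adjusted p = 0.011), or 2.65-fold, against 0.60 for the mean of its probe sets (adjusted p = 0.023). A weaker Osmr probe set, 1418675_at, was 20.2, 22.6 and 19.1 untreated and 35.6, 39.1 and 19.7 at day 1 (0.35 ± 0.14, adjusted p = 0.12), and the remaining one stayed between 11.6 and 15.3. Il6st was 688, 729 and 644 untreated and 836, 798 and 691 at day 1, a difference of 0.17 ± 0.12 (adjusted p = 0.39). The other 3 Il6st probe sets differed by 0.07, -0.06 and -0.12, and none was called. Il6ra was 79.0, 109 and 138 untreated and 106, 95.9 and 117 at day 1, with overlapping groups and an adjusted p of 0.99. Its second probe set differed by 0.20 ± 0.21 (adjusted p = 0.62).

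Downstream of the receptors, Socs3 had the smallest adjusted p of the family. On its representative probe set, 1455899_x_at, the intensity was 154, 137 and 174 untreated, 1630, 1515 and 382 at day 1, 695, 413 and 437 at day 3, and 174, 150 and 236 at day 7. All arrays of days 1 and 3 lay above all untreated arrays, and day 7 overlapped them. The day 1 difference was 2.56 ± 0.42 (adjusted p = 0.004), or 5.88-fold. The suffix _x_at marks a probe set that can bind related transcripts. The Socs3 probe set without that suffix, 1416576_at, went from 66.8, 64.9 and 72.5 to 462, 537 and 130 and differed by 2.01 ± 0.36 (adjusted p = 0.0053). The remaining one differed by 2.42 ± 0.46 (adjusted p = 0.0076). Stat3 was 620, 717 and 637 untreated and 989, 1116 and 757 at day 1, so even replicate 3 lay above the untreated arrays. It rose by 0.51 ± 0.13 (adjusted p = 0.023; 0.062 for the mean of its probe sets and 0.075 with only the 2 groups fitted), and its second abundant probe set, 1460700_at, by 0.46 ± 0.13 (adjusted p = 0.033). A weak Stat3 probe set, 1424272_at, differed by -0.01 ± 0.14 (adjusted p = 0.98), and the remaining one lay between 15.4 and 35.7 and was not tested. Over probe sets, 9 of the 20 tested were called, where 11.5% of all tested probe sets were. The 9 include the Il6 probe set, which passed the filter only through its high arrays and cannot be set against this share.

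The day 1 arrays differed among themselves. Replicate 3 was the lowest of the 3 for Il6, Socs3, Osmr, Stat3 and Il11, although all 5 genes still lay above every untreated array (29.8% of all tested genes had day 1 arrays that did not overlap the untreated ones). Without replicate 3 of day 1, the differences were 3.22 for Socs3, 1.84 for Osmr, 0.67 for Stat3 and 0.51 for Il11, and 6 members were called. The count fell to 2 without replicate 1 of day 1 or without replicate 1 of day 0, and to 3 without replicate 2 of day 1. Socs3 was called in all 12 fits that left out a heart array, Osmr in 9, Il11 in 8 and Stat3 in 7. Il6 was also called in all 12 and is part of each count. It had passed the filter only through its high arrays, however, and the filter was not set again in these fits.

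Neutrophil and macrophage markers moved with the day 1 result. The summed intensity of 11 neutrophil genes was 462, 464 and 1566 untreated and 5576, 8056 and 1735 at day 1, so that it too was lowest in replicate 3. It was 589 to 1939 at day 3 and 653 to 1692 at day 7. Of the neutrophil genes, 5 of 11 rose and none fell at day 1, where 4.86% of all tested genes rose. Of the monocyte and macrophage genes, 6 of 12 rose and none fell. The neutrophil count was 1 without any of replicates 1 and 2 of days 0 and 1, and 8 without replicate 3 of day 1. The macrophage count was 1 without replicate 1 or 2 of day 0 or replicate 1 of day 1, 2 without replicate 2 of day 1, 4 without replicate 3 of day 0 and 8 without replicate 3 of day 1 (each left out in turn). Fitting only the 2 groups compared gave 2 neutrophil and 3 macrophage genes. The macrophage sum was 7330 to 9286 untreated, 12461, 16021 and 9389 at day 1, 9261 to 14972 at day 3 and 8821 to 12355 at day 7. The sum of 8 T, NK and B cell genes was 290 to 349 untreated and 718, 395 and 511 at day 1, so it was lowest in replicate 2. The fibroblast sum was 14583 to 20770 untreated and 13092 to 14133 at day 1. The part of these cells in the levels of Il6, Osmr and Socs3 was not tested.

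**Figure D2:**
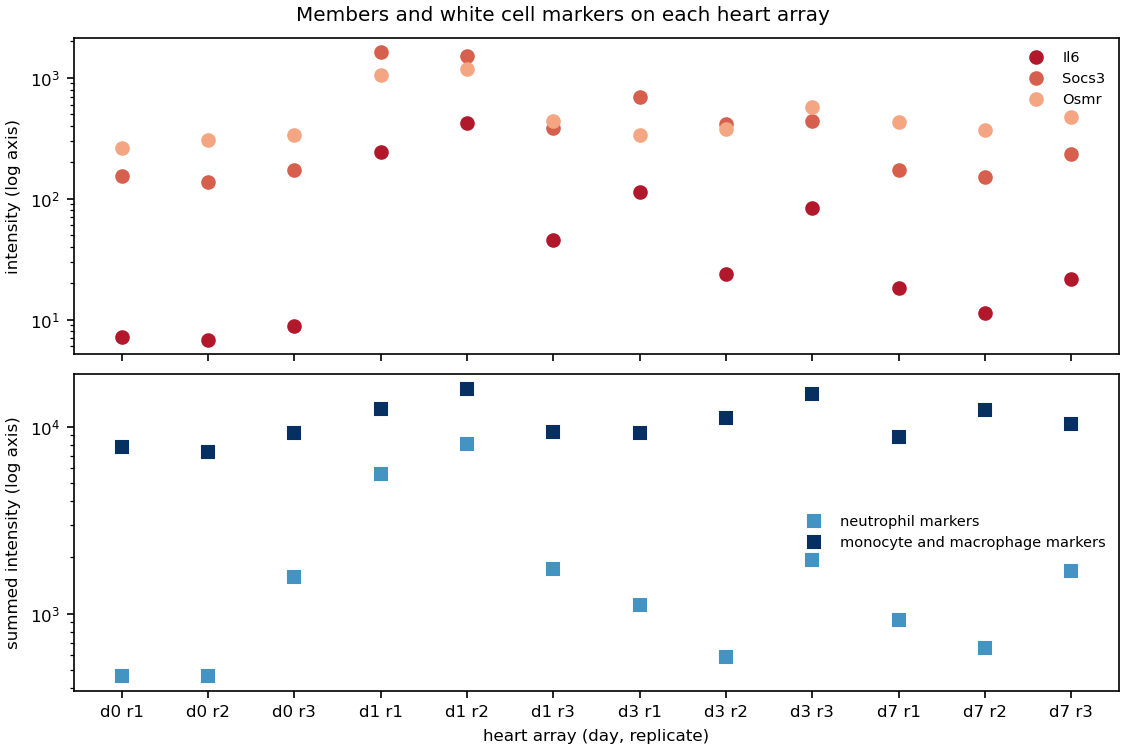
Intensity of Il6, Socs3 and Osmr (upper panel) and summed intensity of 11 neutrophil and 12 monocyte and macrophage marker genes (lower panel) on each heart array, both on log axes. Arrays are labelled by day (d) and replicate (r). Replicates 1 and 2 of day 1 are the highest for the 3 genes and for the neutrophil sum (5576 and 8056), and replicate 3 of day 1 has a neutrophil sum of 1735.

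Known target genes of Stat3 rose with Socs3 at day 1. Of 28 listed targets on the array, 25 were tested, 14 rose and none fell, with a median difference of 0.75 over the 25. Over all genes tested, 4.86% rose and the median difference was -0.02. The largest rises were those of Timp1, an inhibitor of matrix metalloproteinases (3.78 ± 0.51, adjusted p = 0.0019), and Saa3, an acute phase protein (3.20 ± 0.31, adjusted p = 4.7e-04). Lcn2, an iron-scavenging protein of neutrophils and stressed tissue, followed (3.08 ± 0.39, adjusted p = 0.0015), and then Serpina3n, a protease inhibitor (2.25 ± 0.41, adjusted p = 0.0057). Bcl3 (0.56, adjusted p = 0.061), Icam1 (0.49, adjusted p = 0.080) and Hamp (0.75, adjusted p = 0.23) did not pass. The count was 8 without replicate 1 of day 1, 9 without replicate 2 of day 1, 9 without replicate 2 of day 0, 17 without replicate 3 of day 1 and 9 when only the 2 groups compared were fitted. The median difference of the 28 targets from the untreated mean was 0.73, 0.96 and 0.25 on the 3 day 1 arrays, the lowest again in replicate 3. Many of these genes answer to other pathways as well, and immediate early genes, which respond to many stimuli, rose alongside: 9 of 11 rose and none fell, led by Fos (2.34 ± 0.29, adjusted p = 0.0014), Egr1 (1.97 ± 0.28, adjusted p = 0.0026), Btg2 (1.93 ± 0.35, adjusted p = 0.0059) and Egr2 (1.60 ± 0.36, adjusted p = 0.015).

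**Figure D3:**
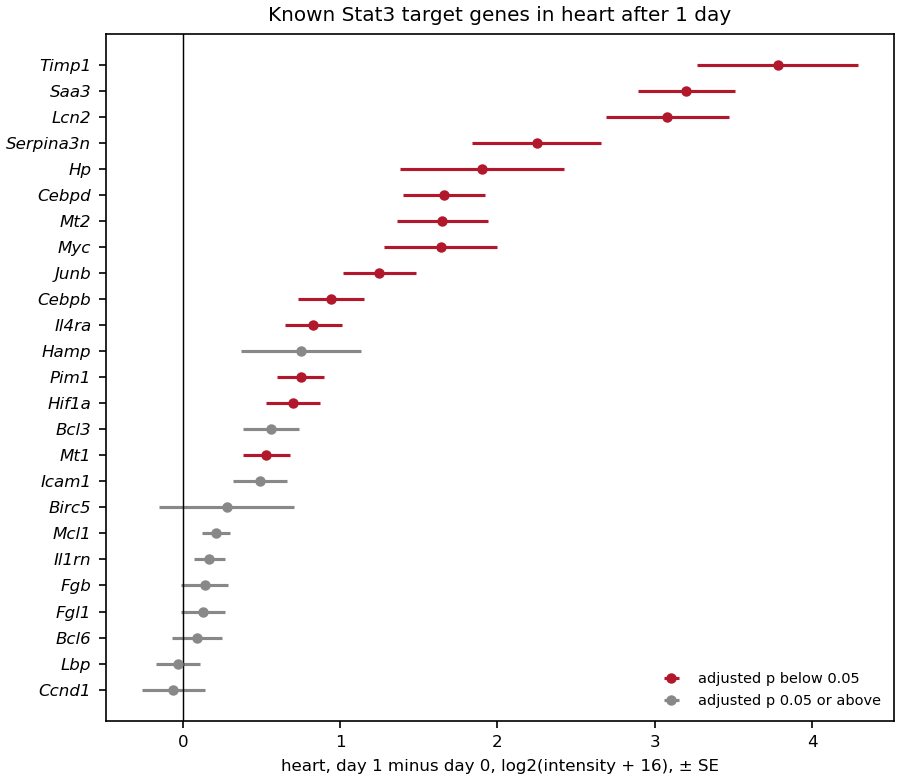
Difference between day 1 and day 0 in heart, in log2(intensity + 16) with its standard error, for 25 known Stat3 target genes. Red points have an adjusted p below 0.05 by limma (14 genes, all higher at day 1) and grey points do not.

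Calls in the rest of the pathway at day 1 went in both directions, where 13.4% of all tested genes changed and 4.86% rose. Of the other ligands on the array, Ctf1, which encodes cardiotrophin-1, fell by 0.48 ± 0.10 (adjusted p = 0.011), and Ebi3 differed by -0.15 (adjusted p = 0.73). None of 3 other receptor chains passed. Lifr, the partner of gp130 for leukemia inhibitory factor, differed by -0.53 ± 0.19 (adjusted p = 0.083), and Il27ra by -0.22 (adjusted p = 0.29). None of 6 Janus kinases and receptor sheddases passed, where Adam10 (0.25) and Jak2 (0.19) had the smallest adjusted p, 0.31 and 0.29. Of 8 other inhibitors, Ptpn2 rose by 0.46 ± 0.12 (adjusted p = 0.030) and Socs2 by 0.41 ± 0.11 (adjusted p = 0.028). Ptpn11, the phosphatase SHP2 that carries gp130 signals to the MAP kinases, fell by 0.48 ± 0.10 (adjusted p = 0.010). Socs1, the nearest relative of Socs3 in function, differed by 0.01 (adjusted p = 0.97).

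By day 7, Il6, Socs3, Stat3 and Il11 had fallen from their day 1 levels. Against untreated heart, no member was called at day 3 (0.0855% of genes were called) or at day 7 (0.0499%). At day 3, 2 members had an unadjusted p below 0.05, Socs3 (1.60 ± 0.42, adjusted p = 0.16) and Il6 (adjusted p = 0.25). Socs3 was called when only these 2 groups were fitted (adjusted p = 0.013), in the joint fit of 3 tissues (0.043) and without replicate 3 of day 1 (0.0024), where Il6 was called too (0.032). Il6 was below the 40th percentile at both ends of the comparison of day 7 with untreated. Day 7 differed from untreated by 0.46 ± 0.30 for Osmr (adjusted p = 0.68) and 0.23 ± 0.42 for Socs3 (adjusted p = 0.92). No member had an unadjusted p below 0.05 there.

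Between days 1 and 7, 4 members fell, where 4.92% of genes changed and 2.12% fell. Il6 was among the 4, but it had passed the filter only through day 1 and day 3 arrays. Among tested genes it therefore had to differ between days, and only the calls of Socs3, Stat3 and Il11 can be set against these shares. Il6 was at least 6.49-fold lower at day 7 (adjusted p = 0.029), where all arrays lay below the 40th percentile. Socs3 fell by 2.33 ± 0.42 on the log2 scale (adjusted p = 0.014), Stat3 by 0.53 ± 0.13 (adjusted p = 0.036) and Il11 by 0.46 ± 0.10 (adjusted p = 0.029). Osmr differed by -0.94 ± 0.30 (adjusted p = 0.085). The count was 0 without replicate 1 or 2 of day 1 or of day 7, 1 without replicate 3 of day 7, 7 without replicate 3 of day 1, and 0 when only the 2 groups were fitted. Of the Stat3 targets, 6 of 25 fell in the same comparison, among them Lcn2 (-2.33), Timp1 (-2.28), Saa3 (-2.26) and Myc (-1.43), and Ptpn11 rose by 0.42 (adjusted p = 0.033). Between days 1 and 3 no member was called (4.3% of genes were), with 6 members at an unadjusted p below 0.05, all lower at day 3. The number called was 6 without replicate 3 of day 1 and 1 without replicate 1 of day 3. Between days 3 and 7 no gene of the heart was called (0%), and 2 members had an unadjusted p below 0.05. Timp1 was the only listed Stat3 target called at day 3 against untreated (3.29 ± 0.51, adjusted p = 0.033), and none was at day 7.

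Promoter sequence from RefSeq (GRCm38.p6) was at hand for 8 of the 10 members, as 9 windows of 250 bases before a transcription start. They were searched on both strands for the Stat core TTCNNNGAA, the tighter Stat3 form TTCCNGGAA, which the first contains, the AP-1 site TGANTCA bound by Fos and Jun proteins, and the cAMP element TGACGTCA. Windows of 4 members called at day 1 are shown to set the one with a Stat core beside those with an AP-1 letter match or none. Capitals mark the matches.
Il6, chr5:30012864-30013113, plus strand: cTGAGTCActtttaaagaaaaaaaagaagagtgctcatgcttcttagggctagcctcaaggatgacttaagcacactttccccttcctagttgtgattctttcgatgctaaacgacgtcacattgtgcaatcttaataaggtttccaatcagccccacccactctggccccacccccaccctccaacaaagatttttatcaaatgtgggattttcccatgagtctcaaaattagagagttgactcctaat
Il11, chr7:4778142-4778391, minus strand: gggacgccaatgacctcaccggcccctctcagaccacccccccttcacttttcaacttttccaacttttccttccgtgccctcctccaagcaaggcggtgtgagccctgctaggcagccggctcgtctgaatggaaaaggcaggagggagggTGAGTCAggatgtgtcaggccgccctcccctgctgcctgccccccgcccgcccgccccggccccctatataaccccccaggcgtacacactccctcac
Socs3, chr11:117969367-117969616, minus strand: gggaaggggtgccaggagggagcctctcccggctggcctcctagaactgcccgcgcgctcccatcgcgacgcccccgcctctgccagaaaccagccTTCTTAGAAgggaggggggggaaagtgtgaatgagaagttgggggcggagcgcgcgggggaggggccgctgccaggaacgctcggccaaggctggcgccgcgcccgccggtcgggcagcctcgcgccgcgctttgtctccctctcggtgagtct
Osmr, chr15:6874314-6874563, minus strand: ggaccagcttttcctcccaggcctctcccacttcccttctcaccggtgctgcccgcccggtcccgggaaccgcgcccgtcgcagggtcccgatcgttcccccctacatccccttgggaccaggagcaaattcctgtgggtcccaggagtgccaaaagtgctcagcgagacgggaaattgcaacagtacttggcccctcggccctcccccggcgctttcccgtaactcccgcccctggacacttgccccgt
Socs3 was the only member with a Stat core in its window, TTCTTAGAA at 154 to 146 bases before the start, and 7.02% of the 32851 promoter windows in the table hold this core. AP-1 letters stood in the windows of Il6 (TGAGTCA, 249 to 243 bases before the start), of 1 of 2 Il11 starts (TGAGTCA, 98 to 92) and of Lif (TGACTCA, 228 to 222), and in 6.75% of all windows. The tighter Stat3 form (0.913% of all windows) and the cAMP element (1.55%) were in none of the 9 windows. Osmr, Stat3, Il6st and Il6ra held no match. A letter match is not a bound site, and these windows leave out the remaining promoter.

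The heart genes with the profile most like a member were sought by the root mean square difference, over 12 arrays, of the log2 level less its untreated mean, among 14030 other genes. Nearest to Socs3 were Ptgs2, the inducible cyclooxygenase (0.42), Lcn2 (0.46), the monocyte chemokine Ccl2 (0.52), the chemokine receptor Ccr1 (0.53) and S100a4 (0.53). Lcn2 (0.49), Ccl2 (0.58) and Ptgs2 (0.60) were also the nearest to Il6, followed by AA467197 (0.62) and the heat shock gene Hspa1b (0.62). Osmr had closer neighbours, Phlda1 (0.15), Efhd2 (0.18), Lrrfip1 (0.21), Pdpn (0.21) and Ankrd10 (0.22). The arrays share their groups, so this measure describes likeness only.

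Between untreated tissues, the share of members called in either direction was near that of all genes or below it. Against kidney, heart was higher on the representative probe sets of 5 of 10 members in limma's joint fit of 26 arrays, where 55.7% of genes differed and 28.6% were higher in heart. They were Socs3 (1.36 ± 0.41, adjusted p = 0.0087), Il6st (1.07 ± 0.13, adjusted p = 5.8e-07), Stat3 (0.93 ± 0.15, adjusted p = 2.8e-05), Osmr (0.84 ± 0.29, adjusted p = 0.019) and Il11 (0.38 ± 0.11, adjusted p = 0.0053). The count was 3 without replicate 1 of untreated kidney and 3 without the kidney arrays with adrenal markers described below. Against brain, heart was higher for 7 of 10, where 72.9% of genes differed and 37.7% were higher in heart. Osmr (2.03 ± 0.29, adjusted p = 4.4e-06), Socs3 (1.78 ± 0.41, adjusted p = 8.4e-04), Il6st (1.24 ± 0.13, adjusted p = 5.3e-08) and Stat3 (1.24 ± 0.15, adjusted p = 5.3e-07) had the widest gaps on these probe sets, and Osm (0.71), Il6ra (0.63) and Clcf1 (0.58) were also called. The other Il6st probe sets put heart minus brain at 0.27, 0.47 and -0.33, the last not called (adjusted p = 0.28), and their mean with the representative gave 0.41. The second probe sets of Il6ra (0.44, adjusted p = 0.082) and Clcf1 (0.29, adjusted p = 0.12) did not pass. Kidney was above brain for 3 of 9 members, Osmr (1.19 ± 0.32, adjusted p = 0.003), Clcf1 (0.47 ± 0.14, adjusted p = 0.006) and Osm (0.42 ± 0.13, adjusted p = 0.0098), where 66% of genes differed and 33.7% were higher in kidney.

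**Figure D4:**
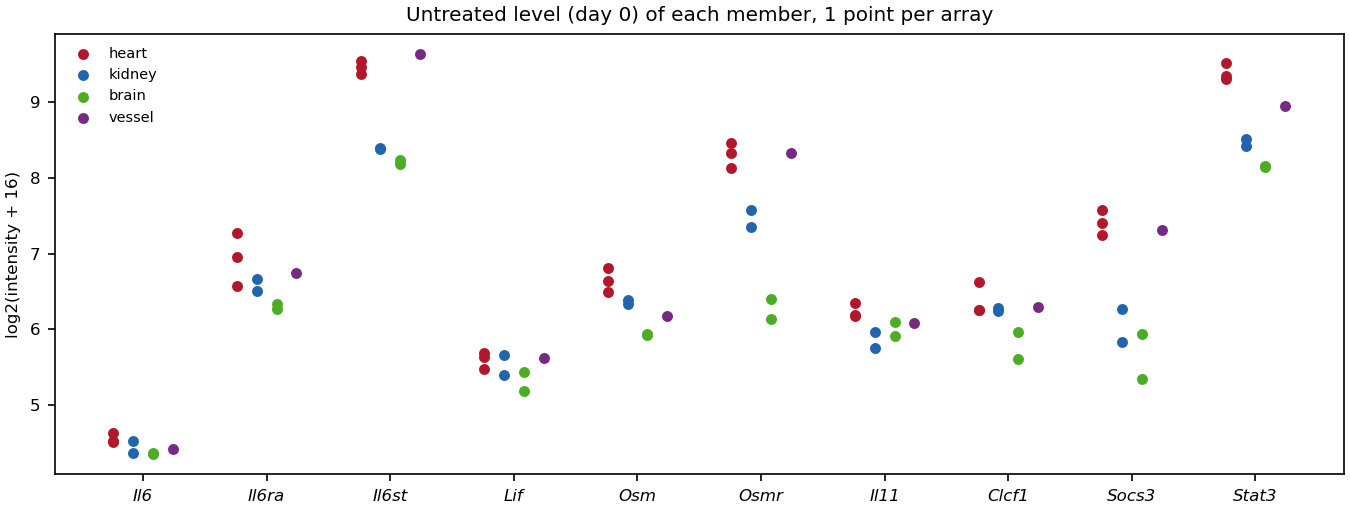
Untreated (day 0) level of each member in 4 tissues as log2(intensity + 16) of its representative probe set, 1 point per array. Levels can be compared between tissues within a gene but not between genes, because probe sets differ in brightness. Osmr is high in heart and vessel, lower in kidney and lowest in brain. Socs3 is high in heart and vessel and lower in kidney and brain, whose arrays overlap, while Il6 lies near 4.5 in all tissues.

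By level, untreated Osmr was ordered heart (264 to 336) and vessel (305, 1 array), then kidney (147 and 175), then brain (54.6 and 68.5), and the steps from heart to kidney and from kidney to brain were called. On the weaker Osmr probe set, 1418675_at, heart minus kidney was 0.11 ± 0.13 and was not called (adjusted p = 0.51). Socs3 had the same order, with 137 to 174 in heart, 143 in vessel, 41.0 and 61.0 in kidney and 24.4 and 45.2 in brain, where kidney and brain overlapped (adjusted p = 0.43). Its other 2 probe sets put heart above kidney by 0.54 and 0.55, neither of which was called (adjusted p = 0.20 and 0.32), and the mean of all 3 gave 0.82 (adjusted p = 0.092). Il6st, the shared chain, depended on the probe set. Probe set 1452843_at was 688, 729 and 644 in heart against 317 and 319 in kidney, whereas 1437303_at was 111, 165 and 184 in heart against 336 and 417 in kidney. The first put heart higher by 1.07 and the second put it lower by 1.23 (-1.23 ± 0.27, adjusted p = 6.2e-04), so no direction can be given for the gene as a whole. Untreated Il6 was below the 40th percentile in all 4 tissues, from 4.44 to 8.77.

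In kidney no member was called at any time. The shares of all genes called were 0.5% at day 1, 0% at day 3 and 0% at day 7 against untreated, and 0.0422% both for day 3 and for day 7 against day 1. Members with an unadjusted p below 0.05 numbered 3, 3 and 2 of 9 at days 1, 3 and 7 against untreated, and 2 and 1 for days 3 and 7 against day 1. Socs3 was 41.0 and 61.0 untreated, 128 and 79.6 at day 1, 62.2 and 66.1 at day 3, and 75.5 and 85.5 at day 7. The treated arrays all lay above the untreated ones, but with 2 arrays a group 48.9%, 36.8% and 36.5% of all genes did not overlap the untreated ones at days 1, 3 and 7. The day 1 difference was 0.82 ± 0.21 (adjusted p = 0.14), against 0.43 and 0.36 on the other Socs3 probe sets, of which 1456212_x_at was at -0.02 on day 3. Stat3 was 326 and 348 untreated and 492 and 425 at day 1 (0.43 ± 0.13, adjusted p = 0.20), and 1460700_at differed by 0.38. Osmr was 147 and 175 untreated, 207 and 189 at day 1, 212 and 210 at day 3, and 279 and 211 at day 7 (0.55 ± 0.14 at day 7, adjusted p = 0.69, with -0.05 and 0.06 on the other Osmr probe sets). Clcf1 differed by -0.37 ± 0.07 at day 1 (adjusted p = 0.092), whereas its other probe sets differed by 0.13 and 0.10. Il6 was 4.54 to 7.37 on all 8 kidney arrays, below the filter, and was not tested there.

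Some kidney arrays held other tissue. The summed intensity of 8 adrenal cortex genes was 4561 in replicate 2 of day 0 and 8128 in replicate 2 of day 3, against 280 to 318 in the other 6 arrays. The fat marker sum was 5442 and 6407 in the day 1 arrays and 14267 in replicate 2 of day 3, against 228 to 489 in the others. A hepatocyte gene sum of 39242 in replicate 2 of day 1 compared with 5166 to 10033 in the others. Without both arrays with adrenal markers, each of the 5 kidney comparisons still called no member. Of 26 Stat3 targets tested, the metallothioneins Mt2 (1.08 ± 0.16, adjusted p = 0.048) and Mt1 (0.72 ± 0.11, adjusted p = 0.048) rose at day 1, and the list's median difference was 0.70 against 0.01 over all genes. The part of the other tissue in these values was not tested.

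In brain, no member was called at day 3 or day 7 (0% of genes called in each), and 0 and 1 of 9 members had an unadjusted p below 0.05. Il6st was 286 and 276 untreated, 199 and 220 at day 3, and 234 and 174 at day 7. All treated arrays lay below the untreated ones, with differences of -0.40 ± 0.16 (adjusted p = 0.66) and -0.45 ± 0.16 (adjusted p = 0.67), but 36.8% and 40.3% of all brain genes did not overlap the untreated arrays at days 3 and 7. Probe set 1437303_at gave -0.40 and -0.45 as well, while 1421239_at gave 0.01 and 0.03 and 1460295_s_at gave -0.02 and -0.08. Socs3 was 24.4 and 45.2 untreated, 47.3 and 29.7 at day 3, and 35.5 and 34.5 at day 7, with overlapping groups. Osmr lay between 47.9 and 71.8 on all 6 arrays and Il6 between 4.44 and 6.23. The arrays differed in tissue content, since the sum of hepatocyte genes, which include the choroid plexus gene Ttr, ran from 168 to 22160 and the neutrophil sum was 1055 and 9497 in the untreated pair and 475 to 940 later.

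**Figure D5:**
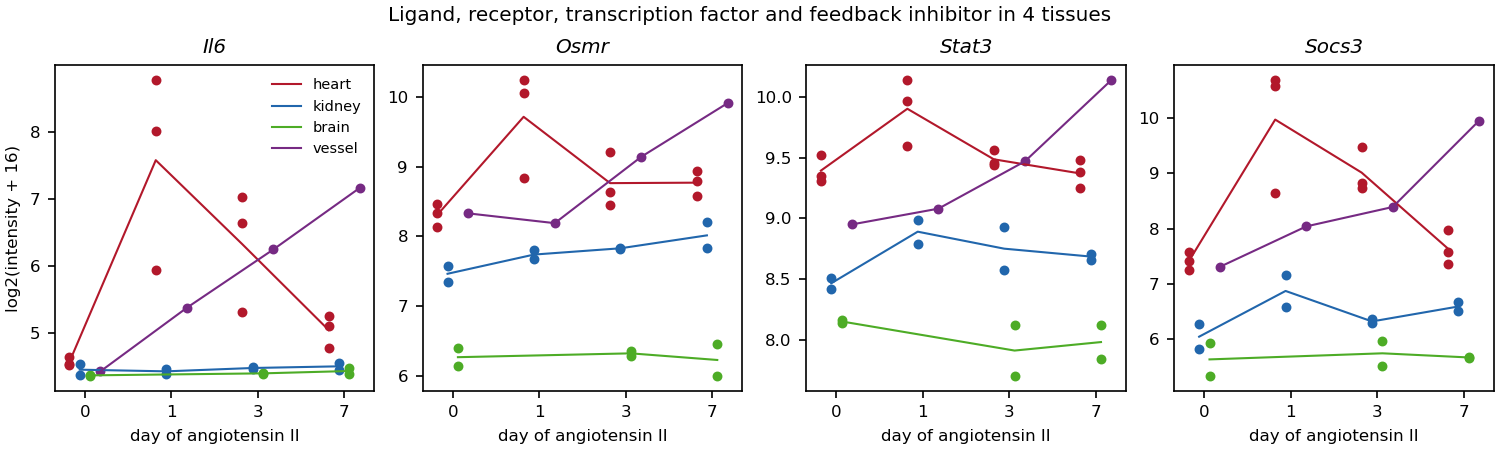
Il6, Osmr, Stat3 and Socs3 by day of angiotensin II in heart (3 arrays a day), kidney (2), brain (2, none at day 1) and vessel (1), as log2(intensity + 16). Points are arrays and lines join group means. Heart is highest at day 1, whereas vessel is highest at day 7.

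The difference in response between tissues was tested directly. At day 1, none of the 9 members measured in both heart and kidney was called, where 3.47% of genes differed and 0.958% responded higher in heart. Il6 did pass the threshold, with a fitted difference of 3.04 ± 0.73 (adjusted p = 0.029). It lay below the 40th percentile on all kidney and untreated heart arrays, however, and entered the fit only through the heart arrays where it was high. Its fitted size ran from 1.83 to 4.38 over 8 other settings, so it gives no usable measure of a tissue difference. Socs3 (1.73 ± 0.59, adjusted p = 0.11) and Osmr (1.13 ± 0.41, adjusted p = 0.13) did not pass, nor did Stat3 (0.09 ± 0.21, adjusted p = 0.89). The Il6 call was lost without any single one of replicates 1 and 2 of untreated heart, replicates 1 and 2 of day 1 heart, or the 4 kidney arrays compared, with differences of 2.44 to 3.13 and adjusted p from 0.058 to 0.12. Without replicate 3 of day 1 heart, 3 members were called. Heart and brain responses differed for no member at day 3 (0.722% of genes) or day 7 (0.334%). At day 3, Socs3 differed by 1.49 ± 0.59 (adjusted p = 0.29), and 2 members, Socs3 and Il6, had an unadjusted p below 0.05. Leaving out replicate 3 of day 1 heart, which enters the shared spread, gave 1 call at day 3. At day 7, 1 member had an unadjusted p below 0.05, Il6st (0.45 ± 0.18, adjusted p = 0.37).

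Vessel had a single array per day, so its values carry no test. Il6 was 5.48, 25.4, 59.7 and 127 at days 0, 1, 3 and 7. Socs3 was 143, 247, 320 and 971 on the same arrays, Osmr 305, 277, 547 and 949, and Stat3 478, 524, 695 and 1111. These 4 genes were highest on the day 7 array, whereas their heart means were highest at day 1. On the log2(intensity + 16) scale the day 7 array lay above the day 0 array by 2.63 for Socs3, 1.59 for Osmr and 1.19 for Stat3. Other probe sets gave 0.40 and 0.01 for Osmr, and 0.57, 0.15 and -0.06 for Stat3, all under 2-fold. Il6 was below the 40th percentile on the day 0 array, so it was at least 2.35-fold higher at day 3 and at least 5.0-fold higher at day 7, with no fold at day 1. Members at least 2-fold away from the day 0 array numbered 0 of 10 at day 1 (1.41% of all genes were), 2 at day 3 (6.08%, with 4.78% higher) and 4 at day 7 (5.35%, with 4.13% higher), all of them higher and Il6 among them on days 3 and 7. Il6 passed the filter in vessel only through the arrays of days 1, 3 and 7, so its place in these counts cannot be set against the shares. All 3 Socs3 probe sets were highest at day 7, with 342 and 514 on the other pair against 79.8 and 73.0 at day 0. A second Il6ra probe set went from 112 to 147, 234 and 223, while the representative one gave 90.8, 104, 82.7 and 119. Il6st was 780, 650, 772 and 837 on its representative probe set and 255, 305, 333 and 531 on 1437303_at. Lif was 33.3, 29.9, 32.5 and 53.3, and Il11 was 51.5, 47.7, 57.0 and 76.1, both highest at day 7 and under 2-fold.

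Some known Stat3 targets in vessel were also high on the later arrays, 11 of 27 at least 2-fold higher at day 7 and 4 at least 2-fold lower. Of all genes, 4.13% were at least 2-fold higher at day 7 and 5.35% were at least 2-fold away in either direction. Timp1 went from 150 to 307, 2771 and 3038, Lcn2 from 102 to 998, 1211 and 1480, and Serpina3n from 190 to 950, 1650 and 1779. The 4 lower ones were Pim1, Saa1, Fgg and Fgb. Pim1 went from 1203 to 879, 700 and 531, Saa1 from 481 to 148, 164 and 179, and Fgg from 148 to 13.2, 13.9 and 46.2. Fgb, a fibrinogen chain made in liver, went from 182 to 18.9, 19.1 and 36.1. The hepatocyte gene sum was 2885, 179, 200 and 1269. The vessel arrays also differed in makeup. The macrophage sum was 5549, 6649, 17101 and 13251 by day, the neutrophil sum 809, 2483, 2415 and 1927, and the cardiomyocyte sum 16239, 8829, 1871 and 15460. The fibroblast sum was 25726, 15920, 51029 and 45770, and the fat marker sum 53590, 55491, 45280 and 32606. The part of this makeup in the members' levels was not tested, and with 1 array per day the array and the day cannot be told apart.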

How the data were processed

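Total RNA of 30 samples was hybridized to Affymetrix arrays. The deposited intensity values stand on a linear scale, 1 per probe set. Affymetrix Expression Console is named as the authors' software in the submitters' processing notes, while its algorithm and settings are not given there. Array medians were alike, and the values were not normalized again. Among 45101 probe sets (64 of them controls, not used), 34945 had a single gene symbol in GEO's platform annotation, 932 several and 9160 none. Each gene stands for its brightest such probe set (mean of 30 arrays). It was tested in a tissue when above the array's 40th percentile on no fewer arrays than its smallest group has (14040 genes in heart, 14214 in kidney, 14109 in brain, 14295 in vessel).

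Separate group-means fits were made for heart (12 arrays), brain (6) and kidney (8), on log2(intensity + 16) in limma 3.58.1 under R 4.3.3, with p-values adjusted by Benjamini-Hochberg across the genes tested and called at 0.05. Comparisons between tissues came from a joint fit of these 26 arrays. Vessel was described without tests. Il6 was given as a bound against the 40th percentile wherever a whole group lay below it. The code was tested on simulated data. Arrays of the same replicate number did not deviate together in every pair, so the numbers were not taken to pair the samples. Correlations of their deviations from the group mean ranged from -0.33 to 0.15 in heart, -0.087 to 0.24 in kidney (median 0.15) and -0.64 to 0.48 in brain. With 2 arrays a group in kidney and brain, these values cannot exclude a pairing. The members, lists, tests and alternatives were chosen with earlier results of these data known. All members are named, with up to 4 called genes by size of each pathway list (or the smallest p where none passed), and the 5 nearest profiles. Bcl3, Icam1, Hamp, Socs1 and Fgb, and the vessel targets, were named after their values were seen. The alternatives left out the filter, any single array or the groups not compared, quantile-normalized the values, averaged a gene's probe sets or took each alone, added 1 or 64 in place of 16, used trended robust variance, blocked on replicate number or used the joint fit. Leaving out both kidney arrays with adrenal markers was added after seeing the data. Summaries were made with pandas 2.3.3 in Python 3.11.15 and plots with matplotlib 3.10.9.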

Additional observations from a re-analysis of the deposited data

Results flagged for a closer look

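For Il6 at day 1, limma's joint fit gave heart minus kidney a value of 3.04 on the log2 scale. Il6 was below the 40th percentile in kidney and untreated heart and passed the filter only through the heart arrays where it was high, so this is not a usable test of a tissue difference. In the remaining cases every array of a tissue, on the representative probe set, lay above its untreated mean and every array of another tissue below, and the difference was not tested. For Il6st, heart minus kidney at day 3 was -0.44, and kidney minus brain was 0.67 at day 3 and 0.61 at day 7. Its other probe sets did not share a direction, with heart minus kidney from -0.35 to 0.26, and kidney minus brain from -0.17 to 0.39 at day 3 and from -0.11 to 0.40 at day 7. Kidney minus brain for Stat3 was 0.52 at day 3 and 0.40 at day 7, and 0.25 and 0.29 on its second abundant probe set. Its weaker probe sets gave -0.05 and 0.05 at day 3, and -0.09 and -0.01 at day 7. For Il11, kidney minus brain was 0.28 at day 3. At day 7, kidney minus brain was -0.27 for Il6ra and -0.17 for Osm, but 0.20 on the second Il6ra probe set. Each rests on 2 or 3 arrays a group, and none of these members was called within kidney, brain or heart at those days.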

How the results depend on the processing

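Il6 and Socs3 at day 1 in heart kept their direction and their call under every alternative that was run. So did the 7 members called for untreated heart against brain, Stat3 for heart against kidney and Osmr for kidney against brain. The other calls were each lost under at least 1 alternative. The alternative that fitted each probe set alone followed only the representative one of each member. For heart against brain, a further Il6st probe set and the second probe sets of Il6ra and Clcf1 were not called. As stated above, Il6 passed the filter only through heart arrays where it was high. With each array left out in turn, called members ranged from 2 to 6 for heart day 1 against untreated, 0 to 2 for day 3 against untreated, 0 to 6 for day 3 against day 1 and 0 to 7 for day 7 against day 1. The ranges were 3 to 6 for untreated heart against kidney, 7 to 8 for heart against brain, 2 to 3 for kidney against brain, 0 to 3 for the heart minus kidney response at day 1 and 0 to 1 for the heart minus brain response at day 3. Fitting only the groups compared gave 1 called member for heart day 3 against untreated, 0 for day 7 against day 1 and 0 for the heart minus kidney response. The joint fit gave 1 for day 3 against untreated and 2 for day 3 against day 1. The mean of all probe sets gave 1 for day 3 against day 1, 5 for untreated kidney against brain and 2 past 2-fold in vessel at day 7, and quantile normalization gave 5 for untreated kidney against brain. Averaging the Il6st probe sets, which differ in direction, turned untreated heart minus kidney from 1.07 to -0.02 (adjusted p = 0.89). An added value of 64 gave 0 for the heart minus kidney response and 0 past 2-fold in vessel at day 3, and an added value of 1 gave 1 in vessel at day 1. Without both kidney arrays with adrenal markers, untreated heart against kidney had 3 calls and the response difference 0 (adjusted p = 0.12 for Il6). With a replicate block, heart day 1 against untreated kept 5 called members and day 7 against day 1 had 3, while kidney and brain had 0. Among differences with neither value called, 125 changed sign under an alternative. The cause of these changes was not tested. Signals below the 40th percentile, such as Il6 untreated, have no reliable level, and 1 to 3 arrays a group limit every comparison.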
